A study of Homo sapiens with 12 samples.

Results

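Messenger RNA was followed for 10 genes in common use as markers of stem-like or drug-tolerant tumour cells. They are the aldehyde dehydrogenases ALDH1A1, ALDH1A3 and ALDH3B2, the surface proteins CD44, CD24 and PROM1, and the transcription factors SOX2, SOX4, SOX9 and KLF4. The rows were taken by symbol from a table of 26485 genes. The rule for taking them uses no measured value, although earlier results of these data were known when the genes were picked. The cells were BT474, an established HER2-positive breast cancer line labelled wild type, and the drug was lapatinib, which blocks the kinases of HER2 and EGFR, at 1 µM. The groups were Control at day 0, drug-tolerant persisters (DTP) at day 9, drug-tolerant expanding persisters (DTEP) at month 6 and long-term resistant cells (LR) at month 9, each with 3 libraries. The treatment label of Control also reads lapatinib, but its titles name it Control at day 0, and it was read as untreated. All groups come from 1 cell line, and the study calls the libraries of a condition technical replicates in one place and parallel plates in another. So n counts libraries here, and SDs and p-values cover only the spread between them.

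Aldehyde dehydrogenases oxidise aldehydes to acids. ALDH1A1 and ALDH1A3 make retinoic acid from retinal, and their activity is the basis of a dye assay used to sort stem-like cells from breast tumours. CD44 is the main receptor for hyaluronan, and CD24 is a small lipid-anchored glycoprotein of luminal cells. High CD44 together with low CD24 is a classical surface phenotype of breast cancer stem-like cells, and PROM1 (CD133) is a membrane protein used in the same way in other tumours. SOX2 and KLF4 belong to the set of factors that reprogram somatic cells to pluripotency, while SOX4 and SOX9 act in progenitor cells of many epithelia, SOX9 in luminal progenitors of the breast among them.

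ALDH1A1, ALDH1A3, CD44 and SOX2 ended at 3 reads or fewer in every LR library, and the promoters of these 4 members are shown because the largest losses are theirs. RefSeq promoter entries matched 8 of the 10 members, the exceptions being ALDH3B2 and SOX9. Each line gives the 250 bases before the RefSeq start of the gene on GRCh38.p14, 5′ to 3′ on the strand of the gene. Capitals mark matches, on either strand, to the GC box GGGCGG, the CCAAT box CCAAT, the TATA box TATAAA and the AP-2-like letters GCCNNNGGC. Matches of different motifs may overlap.
ALDH1A1, chr9:72953054-72953303, minus strand: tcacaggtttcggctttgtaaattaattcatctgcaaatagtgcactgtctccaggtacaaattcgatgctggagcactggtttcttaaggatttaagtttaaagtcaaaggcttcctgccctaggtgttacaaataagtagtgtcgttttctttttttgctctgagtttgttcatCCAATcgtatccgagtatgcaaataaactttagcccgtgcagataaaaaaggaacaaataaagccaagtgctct
ALDH1A3, chr15:100879581-100879830, plus strand: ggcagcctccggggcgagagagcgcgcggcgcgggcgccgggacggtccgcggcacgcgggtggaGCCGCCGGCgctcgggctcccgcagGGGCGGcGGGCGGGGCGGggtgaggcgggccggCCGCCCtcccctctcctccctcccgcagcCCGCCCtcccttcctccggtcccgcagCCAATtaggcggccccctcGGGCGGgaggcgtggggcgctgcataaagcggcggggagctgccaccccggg
CD44, chr11:35138921-35139170, plus strand: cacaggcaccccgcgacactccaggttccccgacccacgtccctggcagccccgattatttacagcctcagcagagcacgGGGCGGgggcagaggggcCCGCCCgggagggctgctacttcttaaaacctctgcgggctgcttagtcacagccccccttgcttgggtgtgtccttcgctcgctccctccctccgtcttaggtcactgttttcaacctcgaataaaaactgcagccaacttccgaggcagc
SOX2, chr3:181711675-181711924, plus strand: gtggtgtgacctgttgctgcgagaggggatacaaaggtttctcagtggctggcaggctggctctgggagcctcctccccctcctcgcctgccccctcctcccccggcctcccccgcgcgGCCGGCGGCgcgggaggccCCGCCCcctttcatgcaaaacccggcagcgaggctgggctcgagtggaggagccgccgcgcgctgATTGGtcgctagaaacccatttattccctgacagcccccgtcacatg

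The ALDH1A1 window was 38.4% G and C with 6 CpG dinucleotides and held 1 CCAAT box. The ALDH1A3 window was 82.4% G and C with 38 CpG and held 6 GC boxes, 1 CCAAT box and 1 AP-2-like match. CD44 lay between them at 62.4% and 15 CpG with 2 GC boxes, and SOX2 had 68.8% and 20 CpG with 1 match each of the GC box, the CCAAT box and the AP-2-like letters. None of these windows held TATAAA. Over 27305 RefSeq promoters of the same length the median was 58% G and C and 11 CpG (quartiles 3 and 23), and the letters of the GC box were found in 42.3%, those of the CCAAT box in 33%, TATAAA in 11.1% and the AP-2-like letters in 19.7%. The 4 genes thus had promoters on both sides of the median in G and C and in CpG. Such matches describe letters only.

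ALDH1A1 is encoded on chromosome 9 at 72900671 to 72953053 (minus strand), ALDH1A3 on chromosome 15 at 100879831 to 100916626 (plus) and ALDH3B2 on chromosome 11 at 67662155 to 67681252 (minus). CD44 lies on chromosome 11 at 35139171 to 35232402 (plus), CD24 on chromosome 6 at 106969831 to 106976855 (minus) and PROM1 on chromosome 4 at 15968228 to 16084023 (minus). SOX2 is a single-exon gene on chromosome 3 at 181711925 to 181714436 (plus), and SOX4 is another on chromosome 6 at 21593751 to 21598619 (plus). SOX9 lies on chromosome 17 at 72121020 to 72126416 (plus), and KLF4 on chromosome 9 at 107484852 to 107489769 (minus). All values rest on the reads over all exons of a gene. Counting by default ignores strand. SOX9 lies within the span of SOX9-AS1, on the opposite strand, which was listed at 3.37 to 3.82 in Control and 0.221 to 0.507 in LR. Of the 3882 50-base stretches of SOX9 transcripts, 0 occurred in annotated transcripts of another gene, on either strand. Any reads from SOX9-AS1 that did fall on SOX9 exons could not be told apart. SOX2 lies within SOX2-OT, listed at 0 to 0.209 in any library. Of the 50-base stretches of each gene's transcripts, 27.8% for ALDH1A3 (mostly with its antisense gene), 7.02% for KLF4 and 5.76% for CD24 (with pseudogenes and others) also occurred in another annotated gene, so these values are the less certain, and for the other members the share was 0% to 2.51%.

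Values are normalised read counts, deposited by the authors, which are read counts scaled by library size and trimmed-mean factors. Libraries held 16383363 to 25030482 reads, 1 read had a value of 0.0412 to 0.0576, and a library with 0 reads allows a level of up to 3 reads, 0.124 to 0.173, for counting error only. DTEP replicate 3 stood apart: across genes, its Pearson r was 0.934 to 0.962 with the other DTEP libraries and 0.971 to 0.986 with LR. Values without it are given below where they matter. Luminal epithelial markers (KRT8, KRT18, KRT19, EPCAM, GATA3, ERBB2) were detected in all groups, 6 of 6, with summed levels of 9385 to 10118 in Control and, in turn, 12026 to 14639 at DTP, 4151 to 6021 at DTEP and 3931 to 5359 at LR. ERBB2 carried most of the sum in Control (mean 6526) and was at 1627 in DTEP, while GATA3 went from 190.3 to 1160 (limma adjusted p = 3.26e-07) and EPCAM from 205 to 330.1 (limma adjusted p = 0.00161), so the list did not move as one. TP63 made up most of the summed level of 5 basal markers, which was 4.33 to 5.84 for Control, 0.418 to 1.32 for DTP, 6.12 to 28.9 for DTEP and 17.4 to 65.7 for LR, with KRT5 at 0 reads in Control and DTP and KRT14 at 0 in DTEP and LR. Mesenchymal markers summed to 90.6 to 154 over all libraries (VIM at 0 reads in LR), and leukocyte markers to 0.932 to 1.79 (Control), 3.22 to 4.84 (DTP), 0.393 to 1.53 (DTEP) and 0.0553 to 0.388 (LR), with CD3E at 0 reads throughout. Mean VIM was 58.3 in Control, 4.82 in DTEP and 0 in LR, while mean COL1A1 was 55.3, 99.8 and 111, so their moves were opposite within that sum. LYZ made up most of the leukocyte sum in Control, DTP and DTEP. The part of these shifts in the results was not tested. In bulk RNA, fewer cells with a transcript and less of it per cell cannot be told apart.

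The markers did not move together at entry into tolerance, and most of them were lower once the cells had regrown. Each was tested by limma on log2(value + 1) over all 12 libraries with Benjamini-Hochberg adjustment over 13794 genes. A gene was said to rise or fall at an adjusted p below 0.05, and was called if the log2 change also exceeded 2 in size. Between Control and DTP, 3 of 10 members fell (SOX2, SOX9 and KLF4; 2 without SOX2) where 28.8% of all genes tested did, 0 rose where 25.2% did, and 0 were called in either direction against 1.01% called higher and 3.90% called lower. At an unadjusted p below 0.05 these limma counts were 1 higher and 3 lower, and edgeR and DESeq2 each called 1 member, SOX2, lower and 0 higher. At an adjusted p alone, each of those tools had 1 member higher, SOX4 (0.64 on the log2 scale in both, adjusted p = 0.0356 in edgeR and 0.0286 in DESeq2). With the 6 libraries of this comparison alone, 4 fell and 2 rose, against 37.6% and 35.4% of all genes.

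Regrowth under the drug was the step with most changes. Between DTP and DTEP, 6 of 10 members (5 without PROM1) fell against 32.6% of all genes, and 3 of them (ALDH1A1, ALDH3B2, CD44) were called lower against 7.02%. In limma 0 members rose, where 35.7% of all genes did, and 0 were called higher against 8.13%. At an unadjusted p below 0.05 the count higher was also 0, and edgeR and DESeq2 had 0 higher at an adjusted p alone. Between DTEP and LR, CD44 alone fell in limma (4.31% of all genes) and was called lower (0.457%), whereas edgeR and DESeq2 each called 3 members lower. CD44 passed the filter on low values, given below, through the groups other than LR only. SOX9 alone rose (3.04%), with 0 called higher (0.225%; 1 member at an unadjusted p below 0.05, and 0 called by edgeR and DESeq2). The transitions share libraries, so their values are set side by side and not correlated.

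Against Control, 8 of 10 members (6 without SOX2 and PROM1) fell in DTEP (28.7% of all genes) and 3 were called lower (6.20%), while 0 rose (29.5%) and 0 were called higher (4.43%). In LR, 7 (5 without SOX2 and PROM1) fell against 32.6%, 4 were called lower against 7.80%, and SOX9 rose against 30.2%, with 0 called higher against 5.03%. Apart from members with no LR library at 1 or more, ALDH3B2 and CD24 fell there and ALDH3B2 was called. Against DTP, 7 members (6 without PROM1) fell in LR (35.3%) with 3 called lower (8.42%), and 2, SOX9 and KLF4, rose (36.2%) with 0 called higher (9.46%). The 3 called lower were ALDH1A1, ALDH1A3 and CD44, all without an LR library at 1 or more, whereas ALDH3B2, CD24 and SOX4 fell with values above that. For these counts of 0 higher, the number at an unadjusted p below 0.05 in limma was 0 in DTEP against Control, 1 in LR against Control and 2 in LR against DTP, and edgeR and DESeq2 called 0 in each. All 10 members passed the filter, which asks for 3 libraries with a value of 1 or more. SOX2 did so through Control only and PROM1 through Control and DTP only, so both had to be higher there and their falls from those groups support nothing. ALDH1A1, ALDH1A3 and CD44 did so through Control, DTP and DTEP only, with no LR library at 1 or more. They had to be higher than LR in at least 1 of those groups, so their falls into LR support nothing either.

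**Figure D1:**
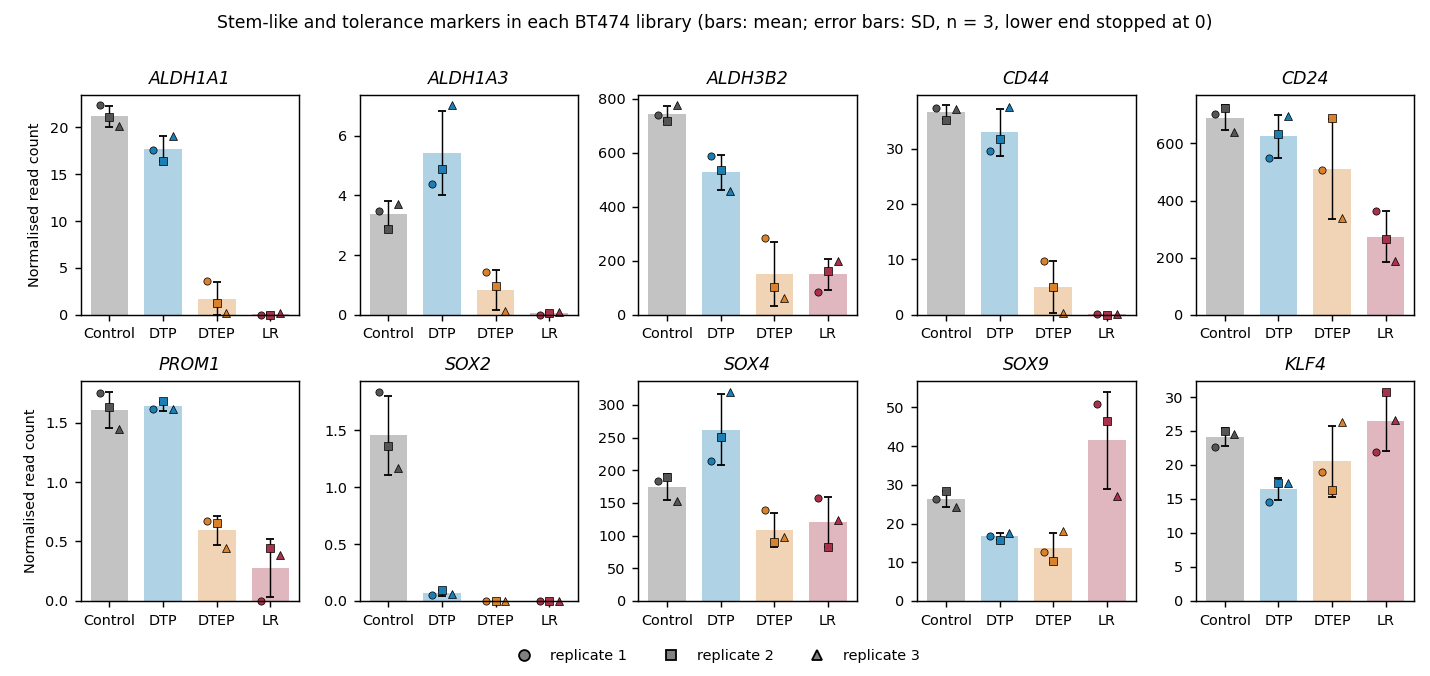
Normalised read counts of the 10 members in each of the 12 libraries, by group (Control, DTP, DTEP, LR), on a linear axis of its own for each gene. Symbols are libraries, bars group means and error bars the SD (n = 3). ALDH1A1, ALDH1A3, CD44 and SOX2 end at 3 reads or fewer in each LR library, whereas ALDH3B2 is at 62.9 or more in every library.

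ALDH1A1, the retinal dehydrogenase most often tied to stem-like activity, was measured at 22.4, 21.1 and 20.1 in the Control libraries and at 17.6, 16.4 and 19.1 in DTP. It was at 3.64, 1.24 and 0.225 in DTEP. In LR it had 0 reads in the first and second libraries and 3 reads, 0.145, in the third. The groups did not overlap in any comparison. On the log2(value + 1) scale most of the fall came between day 9 and month 6, not between day 0 and day 9. The change was -0.25 (SE 0.35, limma adjusted p = 0.581) from Control to DTP and -3.00 (SE 0.35, limma adjusted p = 1.16e-05) from DTP to DTEP on the log2(value + 1) scale, a ratio of means of 10.4. From DTEP to LR it was -1.16 (SE 0.35, limma adjusted p = 0.0590) and did not pass. That last step passed in other settings. Without DTEP replicate 3 it was -1.62 (limma adjusted p = 0.000500), and edgeR gave -4.91 (adjusted p = 0.0151). By reads, Control stood 441-fold above LR, with an exact 95% counting interval of 151 to 2140, and DTEP 36.3-fold (12.1 to 179). As a fold, the step from DTEP to LR was larger than the 10.4 of the step into DTEP. It rests on 3 LR reads and on 76, 30 and 4 DTEP reads. The interval covers counting error and not the spread between libraries, so the 2 steps cannot be ranked.

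ALDH1A3, the second retinal dehydrogenase, was highest in DTP. Its values were 3.50, 2.88 and 3.73 in Control and 4.38, 4.89 and 7.03 in DTP, where all libraries were above all Control libraries. They were 1.44, 0.947 and 0.112 in DTEP, and 0, 1 and 2 reads in LR. The difference of 0.54 between DTP and Control (SE 0.25) missed the threshold in limma (adjusted p = 0.0877) and passed it with only the 6 libraries compared (limma adjusted p = 0.0229). From DTP to DTEP it fell by 1.86 (SE 0.25, limma adjusted p = 3.65e-05), and from DTEP to LR the change was -0.73 (SE 0.25, limma adjusted p = 0.0782), or -1.05 (limma adjusted p = 0.00110) without DTEP replicate 3. Control stood 70.5-fold above LR by reads (exact 95% interval 23.8 to 345). With 3 LR reads in all, only the order of magnitude is known.

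ALDH3B2, a lipid-anchored aldehyde dehydrogenase, was among the most abundant members and was reduced but not lost. Control libraries held 739.6, 719 and 775, and DTP libraries 586, 537 and 458, all below Control. DTEP libraries spread widely, at 284, 104 and 62.9, and LR libraries at 85.8, 162 and 200.4, so that these last groups overlapped. The step into DTP, -0.50 (SE 0.44), did not pass over all 12 libraries (limma adjusted p = 0.354) and passed with the 6 libraries compared alone (limma adjusted p = 0.00265). The step into DTEP was a fall by 2.08 (SE 0.44, limma adjusted p = 0.00113), or by 1.60 (limma adjusted p = 0.00301) without DTEP replicate 3 and by 1.96 without DTEP replicate 2, short of the size for a call. Between DTEP and LR the difference was 0.19 (SE 0.44, limma adjusted p = 0.766) and turned to -0.28 without DTEP replicate 3. Its paralogue ALDH3B1, with which it shared 0.929% of its 50-base stretches, was listed at 9.46 to 10.4 (Control), 4.89 to 5.79 (DTP), 1.73 to 2.87 (DTEP) and 1.44 to 3.59 (LR).

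CD44, the hyaluronan receptor, had the widest ratio between Control and LR means among the members with reads in both. It was at 37.4, 35.2 and 37.2 in Control and at 29.5, 31.7 and 37.6 in DTP, which overlapped. In DTEP it was at 9.76, 4.94 and 0.281, a spread of 204, 120 and 5 reads between libraries of the same group, and in LR it had 2, 0 and 1 reads. The DTEP libraries therefore ran from a level well below Control down to the edge of detection. The difference between DTP and Control did not pass (-0.16, SE 0.55, limma adjusted p = 0.836) and fell by 2.96 into DTEP (SE 0.55, limma adjusted p = 0.000454), or by 2.08 without DTEP replicate 3. It fell by a further 2.06 into LR (SE 0.55, limma adjusted p = 0.0459), where no library reached the value of 1 that the filter asks for. This last call was at the edge of the threshold. It was kept only without DTEP replicate 3 (-2.94, limma adjusted p = 1.44e-05) and was lost, at adjusted p from 0.0629 to 0.160, without any other single library of the 12, while edgeR gave -6.46 (adjusted p = 0.00768). By reads, Control stood 763-fold above LR (exact 95% interval 261 to 3703).

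CD24, the luminal partner of the CD44/CD24 phenotype, stayed abundant in every library and was lowest in LR. Values were 704, 725 and 641 in Control, 548, 632 and 697 in DTP, and 506, 689.7 and 338 in DTEP, and each of these groups overlapped the next. In LR they were 365, 266 and 187, below all Control and DTP libraries but overlapping DTEP. None of the successive steps passed: -0.15 (SE 0.27, limma adjusted p = 0.668), -0.34 (SE 0.27, limma adjusted p = 0.269) and -0.90 (SE 0.27, limma adjusted p = 0.0564), the last passing at -1.17 (limma adjusted p = 0.00231) without DTEP replicate 3. From Control to LR, CD24 fell by 1.39 (SE 0.27, limma adjusted p = 0.000669), a 2.53-fold lower mean. CD44 was 763-fold lower by reads over the same interval, so CD44 and CD24 were both lower in LR than in Control and by unequal amounts.

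PROM1 (CD133) was low throughout, with 38 reads or fewer in every library, and nearest the limit of detection in LR. It had 38, 30 and 31 reads in Control (1.75, 1.63 and 1.44) and 31, 34 and 28 in DTP (1.62, 1.68 and 1.61), which overlapped (0.02, SE 0.15, limma adjusted p = 0.936). It had 14, 16 and 8 reads in DTEP and 0, 8 and 8 in LR, with no overlap with the earlier groups. The difference into DTEP was -0.73 (SE 0.15), in the direction that the filter fixed, and the step into LR, -0.33 (SE 0.15, limma adjusted p = 0.133), did not pass. FGFBP2 lies within its span on the same strand, with 0.326 to 0.460 in Control and 0 in DTEP and LR.

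**Figure D2:**
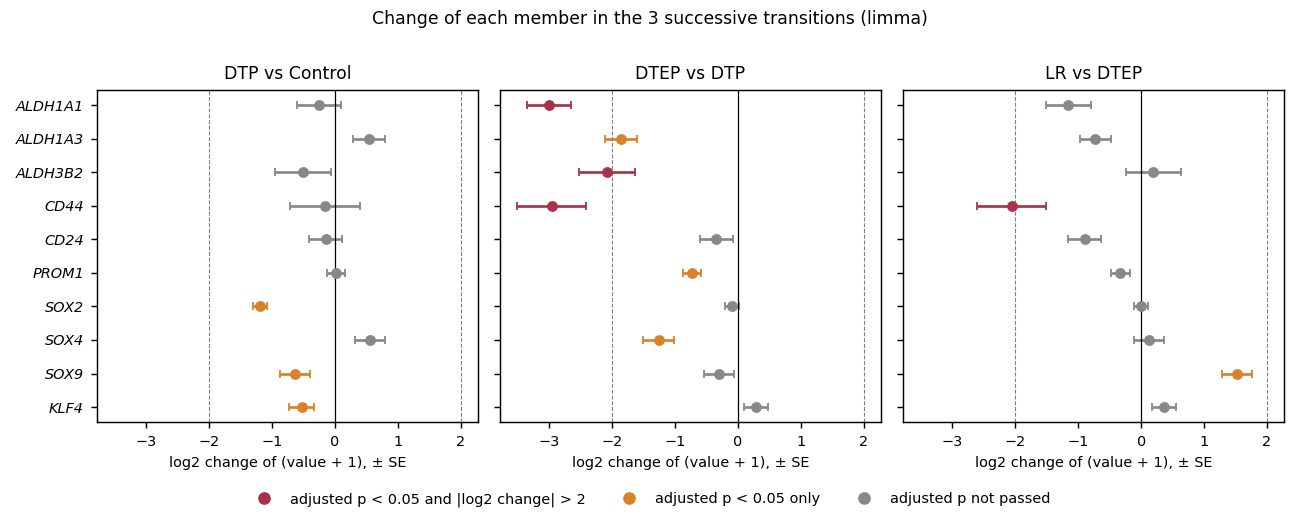
Log2 changes of the 10 members on the log2(value + 1) scale in the 3 successive transitions, with error bars of 1 standard error from limma. Red points were called, orange points passed an adjusted p below 0.05 only, grey points did not pass, and dashed lines mark the size of 2 needed for a call. On this scale the largest falls, ALDH1A1 and CD44, are between DTP and DTEP, and SOX9 between DTEP and LR is the only rise that passed.

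SOX2, a pluripotency factor, was already near 0 at day 9. Control libraries had 40, 25 and 25 reads (1.84, 1.36 and 1.16), DTP libraries 1, 2 and 1, and all 6 DTEP and LR libraries 0. The change into DTP was -1.19 (SE 0.11), in the direction that the filter fixed, and its size is understated because 1 is added to low values. By reads, Control stood 20.7-fold above DTP (exact 95% interval 7.83 to 77.8), at least 8.64-fold above DTEP and at least 8.76-fold above LR, against the limit of 3 reads per library. The log2 change into DTP was -4.19 in edgeR and -4.31 in DESeq2, on the same filtered genes.

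SOX4, a factor of epithelial progenitors, was highest in DTP. It was at 184, 189 and 152 in Control and at 214, 251 and 321 in DTP, with no overlap, then at 139, 90.1 and 97.9 in DTEP and at 158, 82.2 and 124 in LR, which overlapped each other. The step into DTP was 0.56 (SE 0.24) and missed the threshold in limma over all libraries (adjusted p = 0.0660; from 0.0143 to 0.214 over the alternatives). SOX4 fell by 1.26 into DTEP (SE 0.24, limma adjusted p = 0.000554). Between DTEP and LR it differed by 0.13 (SE 0.24, limma adjusted p = 0.721). DTEP was also below Control, by -0.70 (limma adjusted p = 0.0256), and did not pass without Control replicate 1 (0.0725), Control replicate 2 (0.0802), DTEP replicate 2 (0.0958) or DTEP replicate 3 (0.0564).

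SOX9, a luminal progenitor factor, was the only member to end above its Control mean by the test, and it did so by way of a dip. Control libraries were at 26.4, 28.4 and 24.2, DTP at 16.7, 15.7 and 17.6, and DTEP at 12.7, 10.3 and 18.02. In LR it was at 50.8, 46.5 and 27.2, so that 2 libraries were above every library of the other groups and the third lay within the Control range. The fall into DTP was by 0.63 (SE 0.24, limma adjusted p = 0.0439). It did not pass when any single Control or DTP library was left out (0.0677 to 0.125) or in edgeR (adjusted p = 0.0683), although the groups did not overlap. Between DTP and DTEP the change was -0.30 (SE 0.24, limma adjusted p = 0.290). SOX9 rose by 1.52 from DTEP to LR (SE 0.24, limma adjusted p = 0.00692), a 3.03-fold higher mean, and by 1.72 (limma adjusted p = 0.000210) without DTEP replicate 3. In a fit of those 6 libraries alone the adjusted p was 0.266. Against Control the rise was 0.59 (SE 0.24, limma adjusted p = 0.0489), and it did not pass without any single library other than DTEP replicate 2, DTEP replicate 3 and LR replicate 3. SOX9-AS1, on the other strand, was at 0.225 to 0.288 in DTEP and 0.221 to 0.507 in LR.

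KLF4, a zinc-finger reprogramming factor, had its lowest mean in DTP. Its values were 22.6, 25.1 and 24.6 in Control and 14.6, 17.4 and 17.3 in DTP, with no overlap. They were 18.9, 16.3 and 26.4 in DTEP and 22.0, 30.7 and 26.6 in LR, which overlapped each other and Control. KLF4 fell by 0.53 into DTP (SE 0.19, limma adjusted p = 0.0353), and did not pass in edgeR (adjusted p = 0.0653) or without any single Control library, DTP replicate 1 or DTP replicate 2 (0.0647 to 0.119). The later steps, 0.28 (SE 0.19, limma adjusted p = 0.209) and 0.36 (SE 0.19, limma adjusted p = 0.194), did not pass, the latter passing at 0.55 (limma adjusted p = 0.0187) without DTEP replicate 3. From DTP to LR KLF4 rose by 0.65 (SE 0.19, limma adjusted p = 0.00939), back to a level that differed from Control by 0.12 (SE 0.19, limma adjusted p = 0.611).

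DTEP replicate 3, the library closest to LR, was the lowest of its group for 6 of 10 members (ALDH1A1, ALDH1A3, ALDH3B2, CD44, CD24 and PROM1), and it was the lowest for 47.1% of all genes tested. It was the highest for 2, SOX9 and KLF4, and for 36.2% of all genes, and in the middle for SOX4, and SOX2 was at 0 in all 3 libraries. For CD44 its level was 0.281, against 9.76 in DTEP replicate 1.

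Per kilobase of exons, which allows genes to be compared, CD24 (223) and ALDH3B2 (206) led in Control. SOX4 (36.0) followed, then ALDH1A1 (7.46), SOX9 (6.69), KLF4 (6.58) and CD44 (3.67), and ALDH1A3 (0.631), SOX2 (0.579) and PROM1 (0.216) were lowest. Neighbours that did not differ beyond their spread were CD24 and ALDH3B2 with 223 ± 14.1 and 206 ± 7.90 (SD, n = 3), ALDH1A1 and SOX9 with 7.46 ± 0.394 and 6.69 ± 0.528, SOX9 and KLF4 (6.58 ± 0.360), and ALDH1A3 and SOX2 with 0.631 ± 0.0819 and 0.579 ± 0.138. In LR the order of means began in the same way, with CD24 at 88.0, ALDH3B2 at 41.5 ± 16.2 and SOX4 at 24.9 ± 7.76. ALDH3B2 and SOX4 did not differ beyond their spread there. SOX9 (10.6 ± 3.20) and KLF4 (7.22 ± 1.20) came next and did not differ beyond theirs. PROM1 (0.0371 ± 0.0324), ALDH1A1 (0.0171 ± 0.0295), ALDH1A3 (0.00951) and CD44 (0.00443) rested on 16 reads for PROM1 and 3 for each of the others, too few to order. Per length, the surface marker CD24 thus stood far above CD44 in this line before the drug as well as after it.

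The genes with the highest Pearson r to each member over the 12 libraries are given as a description, because the libraries share 4 groups. Pearson's r compares the shape of a course and not its size. CD44 was most like ELF5, a luminal progenitor transcription factor, with a Pearson r of 0.9993 on the log2(value + 1) scale, and like SET (0.998), whose mean went only from 833 in Control to 232 in LR. ALDH1A1 was most like the kinase SYK (0.9985) and SIM2 (0.9985), ALDH1A3 like PCDH10 (0.9944) and SYTL5 (0.9932), and SOX2 like POTEE (0.9943) and ZNF730 (0.9903). The remaining members had r of 0.9722 or 0.9712 for ALDH3B2 (C1orf116, SYTL2), 0.9725 or 0.9718 for PROM1 (MTUS1, SLMO1) and 0.9688 or 0.964 for SOX4 (ENPP5, EXO5). For SOX9 they were 0.9558 (NRSN2-AS1) and 0.9316 (PRKCE), for CD24 0.9418 (C7orf73) and 0.9353 (MORF4L1), and for KLF4 0.9327 (GLCE) and 0.9295 (C9orf152).

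The families of these genes are given beside the share of all genes tested, which from DTP to DTEP was 35.7% for a rise, 32.6% for a fall, 8.13% called higher and 7.02% called lower. Of 16 other aldehyde dehydrogenases, 12 were tested. From DTP to DTEP 6 rose and 4 fell, and 1 was called in each direction, with a median log2 change of 0.47 beside 0.08 over all genes. ALDH6A1, an enzyme of valine breakdown, rose by 2.58 (SE 0.22, limma adjusted p = 1.02e-06) from 25.2, 29.8 and 35.1 in DTP to 127, 179 and 266 in DTEP. ALDH2, the mitochondrial enzyme that clears acetaldehyde, fell by 4.50 (SE 0.50, limma adjusted p = 7.49e-06) from 288, 279 and 264 to 35.3, 7.91 and 4.72, and stood at 3.34, 7.25 and 5.18 in LR. Both are enzymes of the mitochondrial matrix, and they moved in opposite directions. From Control to DTP, 2 of the 12 rose (25.2% of all genes) and 6 fell (28.8%). In that step 0 were called in limma, edgeR and DESeq2, where limma called 1.01% of all genes higher and 3.90% lower. From DTEP to LR 0 rose (3.04%) or fell (4.31%) in limma (0 higher and 1 lower at an unadjusted p below 0.05), with 0 passing in edgeR and 2 lower in DESeq2.

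In the retinoic acid pathway, 12 of 19 genes were tested. From DTP to DTEP 2 rose and 6 fell, with 1 called higher and 2 lower and a median of -0.35, beside the same shares of all genes. CRABP2, which carries retinoic acid to its nuclear receptors, rose by 4.42 (SE 0.23, limma adjusted p = 2.49e-08) from 28.2, 26.0 and 23.0 to 825, 360.2 and 617. The receptor RARA fell by 2.76 (SE 0.21, limma adjusted p = 3.71e-07), and DHRS3, which turns retinal back to retinol, fell by 2.51 after a rise of 4.12 (SE 0.25, limma adjusted p = 2.70e-07) from Control to DTP. In that first step 6 rose (25.2% of all genes) and 3 fell (28.8%) in limma, which called DHRS3 alone, while edgeR and DESeq2 each called 2 higher and 1 lower. CYP26A1 passed the filter through DTP only, RARB through Control only and RARRES3 through Control and DTP only. The rise of CYP26A1 and the fall of RARB in that step were thus fixed. So were the falls of CYP26A1 and RARRES3 into DTEP, and the counts include all of these. From DTEP to LR 0 of the 12 passed in limma (1 higher and 2 lower at an unadjusted p below 0.05), and 1 was lower in edgeR and in DESeq2. Of all genes tested, 3.04% rose and 4.31% fell there in limma.

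Of 16 other SOX factors only 5 were tested, and 3 of them were called lower from DTP to DTEP, where 7.02% of all genes were. SOX6 fell by 3.91 (SE 0.26, limma adjusted p = 1.38e-07), SOX15 by 3.22 (SE 0.35, limma adjusted p = 5.81e-06) and SOX11 by 2.32 (SE 0.22, limma adjusted p = 1.86e-06). SOX13 rose in the same step, without being called, and again from DTEP to LR. Of 13 KLF factors tested among 16, 3 rose and 7 fell in that step, beside 35.7% and 32.6% of all genes. KLF7 (by 3.59, SE 0.34, limma adjusted p = 1.86e-06), KLF8 (by 2.58, SE 0.24, limma adjusted p = 1.84e-06) and KLF5 (by 2.58, SE 0.58, limma adjusted p = 0.00179) were called lower, and KLF2 (2.40, SE 0.43, limma adjusted p = 0.000324) and KLF17 higher, the latter from 0 reads in all 6 Control and DTP libraries to 4.02, 5.31 and 3.42. KLF17 passed the filter only through DTEP and LR, so it could only be higher there. In the step from Control to DTP 1 SOX factor rose and 1 fell, and 3 KLF factors fell, where 25.2% of all genes rose and 28.8% fell. From DTEP to LR KLF7 was the only KLF factor to fall in limma, where 4.31% of all genes did. KLF7 had no LR library at the value of 1 that the filter asks for, so this fall supports nothing. At an unadjusted p below 0.05 in limma 3 fell, and at an adjusted p 1 fell in edgeR and 3 in DESeq2.

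**Figure D3:**
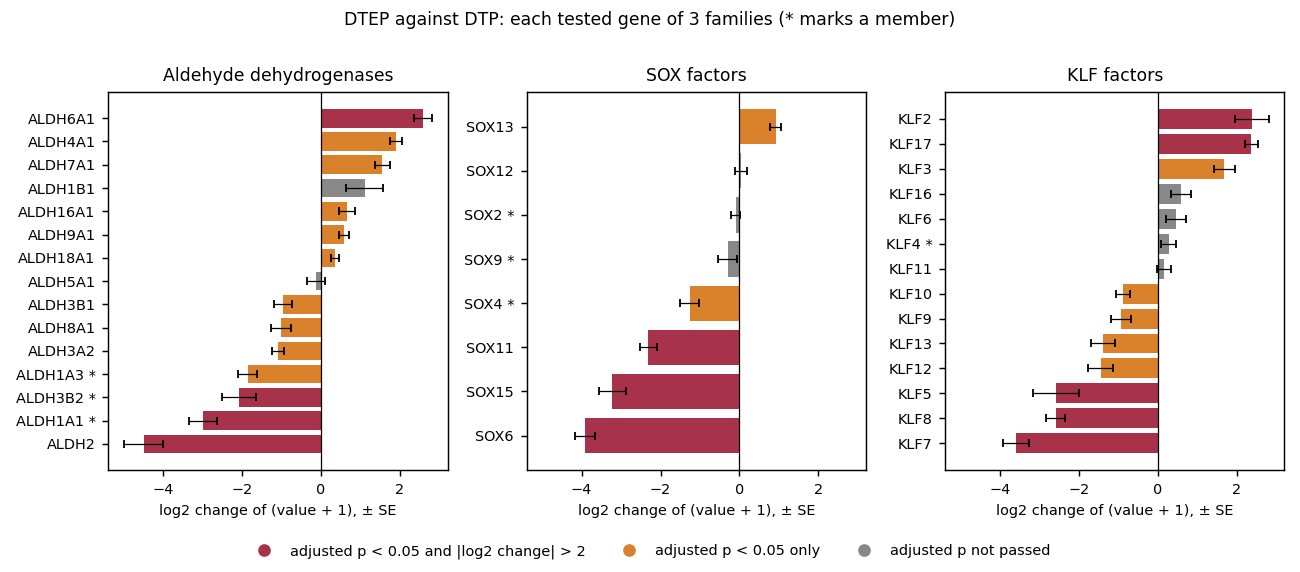
Log2 change from DTP to DTEP on the log2(value + 1) scale of every tested aldehyde dehydrogenase, SOX and KLF gene, with error bars of 1 standard error from limma. Red bars were called, orange bars passed an adjusted p below 0.05 only, and grey bars did not pass. ALDH2, SOX6 and KLF7 have the lowest values of their families, and ALDH6A1 (2.58) and KLF2 (2.40) the highest of theirs.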

How the data were processed

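Stranded mRNA libraries of BT474 cells were sequenced, and the authors used Rsubread, at its default settings, to align reads to hg38 and count them over RefSeq genes. The deposited table holds a normalised signal per gene and library. Divided by the smallest value in its library, each of the 199680 values above 0 was a whole number within 1.2e-09, which recovered the reads (16383363 to 25030482 per library). Rescaling these by edgeR's trimmed-mean factors gave back the deposited values, with a largest relative difference of 5e-15. All 12 per-sample columns were used. The submitters' processing notes also name edgeR and bcl2fastq.

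Groups came from the sample titles. Following the study, limma (here 3.58.1 in R 4.3.3) was fitted to logs of value + 1. The log base of 2 and 1 joint fit of all 12 libraries without covariates were choices made here. So were the mean-variance trend and the filter, which kept genes reaching 1 in 3 or more libraries. Tests were two-sided with Benjamini-Hochberg adjustment over 13794 genes, and a call needed both an adjusted p under 0.05 and a log2 change over 2 in size. Adding 1 understates the change of low genes. The 6 comparisons share libraries. A fold against a group with at most 4 reads is a ratio of summed reads with an exact 95% interval for counting error, or a bound at 3 reads per library. No pair of libraries was a duplicate (the smallest chi-square per gene between replicates was 1.71). On simulated reads, 200 of 200 changed genes were recovered with 0 false calls among 13036 genes in DTP against Control. These reads were drawn around the Control means with a small fixed spread, and only abundant genes were changed, by a large factor. The simulation therefore checks that the fit runs as intended. It does not show how well low genes, small changes or groups as spread as DTEP are called.

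The members and lists were chosen with earlier results of these data known. The text names all 10 members, the 2 most similar genes of each, and genes that overlap or resemble a member. It also names up to 4 called genes per list and transition. SOX13 was named after its values were seen, and so were CYP26A1, RARB, RARRES3 and SALL4, for how they passed the filter. Lists covered other aldehyde dehydrogenases, the retinoic acid pathway, other SOX and KLF factors, other stem and progenitor markers, and partners of CD44 and CD24, and 2 list genes are not reported here. Replicate numbers did not pair libraries. Alternatives were pseudocounts of 0.1 and 0.5, no filter, a filter at a mean of 5, no trend, only the 6 libraries compared, median-of-ratios or plain CPM scaling, the replicate block, edgeR 4.0.16 quasi-likelihood and DESeq2 1.42.0 on the recovered reads, other thresholds, and each library left out. Coordinates are RefSeq GRCh38.p14, the build hg38, and exon lengths are GENCODE.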

Additional observations from a re-analysis of the deposited data

How the results depend on the processing

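The count of members called lower between Control and DTP was 0 and became 1 with a pseudocount of 0.1, edgeR, DESeq2 or an absolute log2 change above 1, and 3 at an adjusted p alone. Between DTP and DTEP the 3 called lower became 5 above 1 and 6 at an adjusted p alone. Between DTEP and LR the 1 called lower, CD44, became 3 with a pseudocount of 0.1, edgeR and DESeq2 and 0 without a filter, with only the 6 libraries compared or with the replicate block, and leaving out single libraries gave 0 to 1. The count called higher there, 0, became 1 above 1 or at an adjusted p alone. Against Control, the 3 called lower in DTEP became 5 with a pseudocount of 0.1, DESeq2 or above 1, and 8 at an adjusted p alone, and the 4 in LR became 7 above 1 or at an adjusted p alone, with 0 called higher becoming 1 at an adjusted p alone. Against DTP, the 3 called lower in LR became 5 in edgeR and 7 above 1 or at an adjusted p alone, and 0 called higher became 1 above 1 and 2 at an adjusted p alone. The cause of the changes between tools was not tested.

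Directions reversed in 4 cases, none past the threshold. ALDH3B2 between DTEP and LR was -0.28 without DTEP replicate 3 and -0.06 without LR replicate 3 (range -0.28 to 0.80 over single libraries left out), PROM1 between Control and DTP was -0.029 without Control replicate 3 (range to 0.056), and SOX4 between DTEP and LR was -0.086 without LR replicate 1 (range to 0.38). Of the other values of single members, 1308 kept their direction and side of the threshold for a call, 31 passed it and 19 dropped below it. A mean of at least 5 left out ALDH1A3, PROM1 and SOX2. Plain CPM moved the median of all genes by -0.11 between DTP and DTEP. The replicate number was no pairing: deviations of same-numbered libraries correlated at -0.44 to 0.36, over 0.1 in 2 of 18 pairs, and 2 of 12 libraries correlated best with their own number. With the block, CD44 between DTEP and LR had a limma adjusted p of 0.0545 and SOX9 one of 0.0660 between Control and DTP and 0.0714 between Control and LR, and it moved no other count of calls by over 1.5 times. Levels at a few reads limit SOX2, PROM1 and the LR values of ALDH1A1, ALDH1A3 and CD44.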

Other observations

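Among 20 other stem and progenitor markers, 10 were tested. NES, an intermediate filament of neural progenitors, had 11 reads over the 3 Control libraries and 0 in DTP, then reached 329, 273 and 94.6 normalised read counts in DTEP and 72.6, 66.5 and 109 in LR, and it passed the filter through these groups only. ITGA6, the integrin subunit CD49f used to sort mammary progenitors, fell by 2.26 on the log2(value + 1) scale from Control to DTP (SE 0.23, limma adjusted p = 1.34e-05). It then rose by 4.88 (SE 0.23, limma adjusted p = 8.84e-09) from 8.19, 10.3 and 14.7 in DTP to 271, 414 and 365 in DTEP. The chemokine receptor CXCR4 rose by 4.02 into DTEP (SE 0.35, limma adjusted p = 1.10e-06), to 47.4, 75.3 and 22.3, and fell by 2.40 into LR (SE 0.35, limma adjusted p = 0.00615), to 7.82, 5.37 and 9.35. ELF5 fell by 3.13 into DTEP (SE 0.53, limma adjusted p = 0.000220) and by 2.07 into LR (SE 0.53, limma adjusted p = 0.0405). From DTP to DTEP 4 genes of the list rose and 4 fell (35.7% and 32.6% of all genes tested), from Control to DTP 1 rose and 5 fell (25.2% and 28.8%), and from DTEP to LR 1 rose and 2 fell (3.04% and 4.31%). SALL4 passed the filter through Control and DTP only. For NES and SALL4 the direction of the step from DTP to DTEP was therefore fixed by the filter. ELF5 had no LR library at the value of 1 that the filter asks for. It passed through the other groups only, so its fall into LR supports nothing.

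Of 16 partners and relatives of CD44 and CD24, 10 were tested, of which 7 fell from Control to DTP (28.8% of all genes) and 6 rose from DTP to DTEP (35.7%). HMMR, another hyaluronan-binding protein, which is made in dividing cells, fell by 4.10 into DTP (SE 0.20, limma adjusted p = 8.35e-08) and rose by 4.14 into DTEP (SE 0.20, limma adjusted p = 1.34e-08), the step in which CD44 fell. ADAM10, a protease that cleaves CD44, rose by 2.10 in that step (SE 0.26, limma adjusted p = 1.56e-05). In both lists, the links between these genes and the members were not tested.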
